A study of Homo sapiens with 12 samples.

Results

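The RNA of thrombospondin-1 (THBS1) and of 8 genes tied to the YAP/TEAD transcription module was compared between Huh7 cells that carried shFAM111B and Huh7 control cells. The 9 genes were THBS1, CCN1, CCN2, ANKRD1, AMOTL2, LATS2, AJUBA, YAP1 and TEAD1, and all 9 were found by symbol among the 60666 listed genes and passed the filter on low values with 14394 genes in all. They were chosen by name with the values of this same comparison already known, so their levels are given as a description and no test of them is reported. In the control libraries CCN2 was the most abundant of the 9 and TEAD1 the least. In the shFAM111B libraries every one of the 9 was lower than in any control library, from 5.21% of the control mean for THBS1 to 48.8% for CCN1.

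Huh7 is an established human hepatocellular carcinoma line. The knockdown cells were infected with a lentivirus encoding a short hairpin RNA against FAM111B, a protein with a trypsin-like protease domain, and kept as a selected stable population. The study's methods list control sequences, while the submitters' design text calls the control Huh7 cells normal. Whether the control cells were infected and selected is therefore not certain. If they were not, infection and selection cannot be told apart from the hairpin. There were 3 libraries of the control group and 3 of the shFAM111B group, 1 hairpin was used, and the methods say that experiments were repeated without stating that these libraries came from separate cultures, so the spread between them may be technical. The Hep3B libraries were not analysed here.

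YAP1 and its paralogue WWTR1 (TAZ) are transcriptional coactivators that do not bind DNA themselves and reach their target genes through the TEAD factors. The Hippo kinases, with LATS1 and LATS2 last in the chain, phosphorylate YAP1 and TAZ and hold them in the cytoplasm, and the angiomotins bind them there. Target genes of the module include secreted matricellular proteins such as CCN1 and CCN2 and also inhibitors of YAP1 such as LATS2 and AMOTL2, which close a feedback loop. In the liver this pathway is known for restraining organ size.

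The deposited values are TPM, read abundances that are corrected for transcript length and brought to the same total in each library. FAM111B itself stood at 7.84, 8.29 and 7.99 TPM in the controls and at 0.96, 1.13 and 0.84 TPM in the shFAM111B libraries, which is 12.1% of the control mean. Correlations of log2 values across the tested genes were 0.969 to 0.984 between libraries of 1 group and 0.865 to 0.883 between the groups. The depth behind a TPM value cannot be read from it, and errors are therefore the spread between libraries. The 8 hepatocyte markers all had at least 1 TPM and summed to 27230 to 27807 TPM in the control libraries and 40650 to 45634 TPM in the shFAM111B libraries, with 1 called lower and 3 called higher. At an unadjusted p under 0.05 from limma, 5 of them were lower and 3 higher. AFP alone had means of 7274 and 23062 TPM, so the higher sum does not describe most of the markers. Of the markers of other cell types, 3 of 6 fibroblast or stellate genes reached 1 TPM in any library (sums of 9.58 to 11.8 and 15.1 to 21.0 TPM, none called lower and 1 called higher by limma, 0 lower and 3 higher at an unadjusted p under 0.05), 1 of 4 endothelial genes did (1.26 to 2.29 and 2.15 to 3.49 TPM, with KDR at 0 in every library and none called or at an unadjusted p under 0.05) and 2 of 4 leukocyte genes did (3.95 to 5.72 and 1.90 to 3.64 TPM, likewise). Their part in the results was not tested.

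A gene was called when log2(TPM + 1) differed by at least 1, that is 2-fold, with a Benjamini-Hochberg adjusted p under 0.05 over all tested genes in limma. All 9 genes met this rule in the lower direction, as did 3406 of the 14394 tested genes (23.7%), while 974 (6.77%) were called higher. All 9 also had every shFAM111B library below every control library, which was so for 7593 tested genes (52.8%). Because the 9 were chosen with this contrast in view, nothing is read from either count. The median tested gene had a log2 fold change of -0.36, and that background depends on the scaling of the TPM, as described further on. A lower value of a transcript in these bulk RNA samples may come from fewer cells that express it or from less of it per cell, and the 2 cannot be told apart.

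The promoters of the 9 genes were searched for the core of the TEAD binding motif, GGAATG, on both strands (CATTCC on the other strand). RefSeq windows from 250 bases before to 50 bases after a transcription start were available for 7 of the 9 genes, and CCN1 and TEAD1 had no entry. All 7 held the motif in at least 1 window, against 15.1% of the tested genes with a window. The 9 genes were chosen as YAP/TEAD genes, so nothing is read from that count. Per window, 14.0% of all 35116 held the motif, and 1.37% held at least 2 copies, as CCN2 (3 copies) and ANKRD1 (2 copies) did. The copies are shown because these 9 genes are discussed as YAP/TEAD genes and the motif is the DNA word that TEAD proteins read. They are printed below from 5′ to 3′ on the strand of the gene with 30 bases on either side, in GRCh38.p14, with the motif in capitals. The LATS2 copy starts at base 10 after the start, within the transcript, and is not printed.
THBS1 (chr15:39581003-39581068, plus strand): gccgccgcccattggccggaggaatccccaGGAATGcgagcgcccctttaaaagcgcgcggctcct
CCN2 (chr6:131951432-131951571, minus strand): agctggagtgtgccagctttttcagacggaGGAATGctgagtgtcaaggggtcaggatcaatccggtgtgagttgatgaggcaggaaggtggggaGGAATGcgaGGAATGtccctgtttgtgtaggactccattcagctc
ANKRD1 (chr10:90921180-90921337, minus strand): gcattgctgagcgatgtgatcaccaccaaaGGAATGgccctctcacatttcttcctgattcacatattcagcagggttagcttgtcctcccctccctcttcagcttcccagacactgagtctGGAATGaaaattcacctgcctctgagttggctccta
AMOTL2 (chr3:134374481-134374546, minus strand): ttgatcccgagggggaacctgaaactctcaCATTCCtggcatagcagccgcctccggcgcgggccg
AJUBA (chr14:22976866-22976931, minus strand): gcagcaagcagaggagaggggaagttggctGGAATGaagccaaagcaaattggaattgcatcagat
YAP1 (chr11:102110255-102110320, plus strand): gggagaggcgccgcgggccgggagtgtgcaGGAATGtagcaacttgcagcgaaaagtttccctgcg

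Counted from the transcription start, the motif began at base -46 in THBS1, at -169, -104 and -95 in CCN2, at -220 and -128 in ANKRD1, and at -162 in YAP1. In AMOTL2 it began at -69 and in AJUBA at -59, each in 1 of the 2 windows of the gene. Across the tested genes the motif was present for 16.4% of genes called lower (416 of 2531 with a window), 16.8% of those called higher (86 of 512) and 14.6% of those not called (1032 of 7084). Of 12 other YAP/TAZ-TEAD target genes with a window, 5 (41.7%) held it, but so did 6 of 14 SRF/MRTF targets (42.9%), 4 of 7 paralogues of THBS1, CCN1, CCN2 and ANKRD1 (57.1%) and 3 of 6 angiomotin and LIM genes. A match of 6 letters is a description and shows neither a bound site nor a cause.

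YAP1 and TEAD1 form the transcriptional complex itself. YAP1 (ENSG00000137693, chromosome 11 from 102110461 to 102233423 of GRCh38) had 33.73, 30.53 and 31.37 TPM in the controls and 12.38, 11.43 and 10.59 TPM in the shFAM111B libraries. The lowest control was 2.47 times the highest shFAM111B library. The means were 31.9 ± 1.66 and 11.5 ± 0.896 TPM (SD, n = 3 each), a log2 fold change of -1.40 on the log2(TPM + 1) scale. TEAD1 (ENSG00000187079, chromosome 11 from 12674591 to 12944483) had 13.25, 12.73 and 11.98 TPM in the controls and 1.47, 1.77 and 1.21 TPM in the shFAM111B libraries. All 3 shFAM111B values were far below the controls, and at 11.7% of the control mean TEAD1 lay nearest to THBS1 among the 9. Its log2 fold change was -2.46, which the pseudocount of 1 shrinks for a gene this low, and with a pseudocount of 0.1 it was -3.02.

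None of the tested paralogues of these 2 factors was called. TEAD3 fell by 0.71 on the log2 scale without reaching 2-fold (8.07 to 8.90 TPM against 13.9 to 14.9 TPM in the controls, limma adjusted p = 0.000166). TEAD2 stood at 11.84 to 12.73 TPM against 9.41 to 11.10 TPM, a log2 fold change of 0.28 (limma adjusted p = 0.0263). TEAD4, the most abundant TEAD of these cells, overlapped between the groups at 24.11 to 26.99 TPM against 24.98 to 31.04 TPM (log2 fold change -0.14, limma adjusted p = 0.222), and its sign depended on the scaling (-0.28 to 0.40). The share of TEAD1 in the summed TPM of the TEAD genes is left as it is by any scaling that multiplies all genes of a library alike, though not by quantile normalization. It was 21.3%, 19.5% and 17.7% in the controls and 3.11%, 3.73% and 2.52% in the shFAM111B libraries, so that the lowest control share lay far above the highest shFAM111B share. TEAD4 made up 42.8% ± 2.91 of that sum in the controls and 52.9% ± 2.80 in the shFAM111B libraries (SD, n = 3 each), and TEAD2 15.5% ± 1.32 and 26.1% ± 1.30. A share does not remove the trend of the log2 fold changes with transcript length, which is given below. The longest transcript has 8477 nt in TEAD1, against 2983 nt in TEAD3, 2440 nt in TEAD2 and 1690 nt in TEAD4. Whether length plays a part in these shares was not tested. WWTR1 had 10.4, 9.06 and 9.59 TPM in the controls and 6.16, 5.75 and 3.30 TPM in the shFAM111B libraries, a log2 fold change of -0.85 (limma adjusted p = 0.00682) that was not called at 2-fold. YAP1 held 76.4% to 77.1% of the summed TPM of both coactivators in the controls and 66.8%, 66.5% and 76.2% in the shFAM111B libraries, where the last value lay just under the control range.

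**Figure D1:**
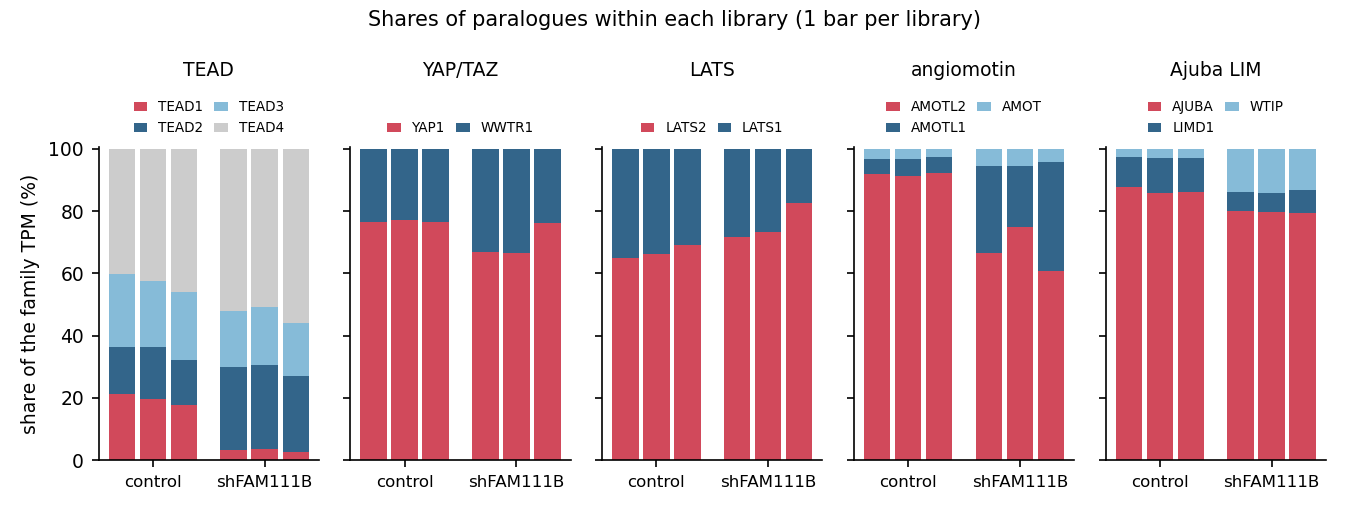
Share of each paralogue in the summed TPM of its family (percent, vertical axis) as 1 stacked bar per library, for 3 control and 3 shFAM111B libraries of Huh7 cells and the TEAD, YAP/TAZ, LATS, angiomotin and Ajuba families. TEAD1 goes from 17.7% or more of its family to 3.73% or less, and AMOTL2 from 91.4% or more to 74.8% or less, while LATS2 takes a larger share of its family in each shFAM111B library.

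Among the secreted products, THBS1 stood apart. THBS1, a matricellular glycoprotein that binds integrins and CD47 and can activate latent TGF-beta (ENSG00000137801, chromosome 15 from 39581079 to 39599466), had 96.53, 92.60 and 103.00 TPM in the controls and 5.15, 4.68 and 5.40 TPM in the shFAM111B libraries. The lowest control library held 17.1 times the TPM of the highest shFAM111B library. The means were 97.4 ± 5.25 and 5.08 ± 0.366 TPM (SD, n = 3 each), a ratio of 19.2, and the log2 fold change was -4.02. It was the 12th lowest of the 14394 log2 fold changes. CCN2 (ENSG00000118523, chromosome 6 from 131948176 to 131951373), a matricellular growth regulator and standard YAP/TEAD readout, had 287.53, 287.24 and 287.14 TPM in the controls and 122.00, 127.98 and 113.26 TPM in the shFAM111B libraries. The control values were nearly equal, with a coefficient of variation (SD over mean) of 0.0705%, and the shFAM111B mean was 42.1% of theirs (log2 fold change -1.24). CCN1 (ENSG00000142871, chromosome 1 from 85580761 to 85583962), its matricellular paralogue, had 137.05, 140.98 and 154.53 TPM in the controls and 67.70, 74.54 and 68.94 TPM in the shFAM111B libraries. The groups did not overlap, and the lowest control was 1.84 times the highest shFAM111B library. The log2 fold change of CCN1 was -1.02, just past the 2-fold line, and it was -0.97 without control replicate 3 and -1.0, just short of the line, without shFAM111B replicate 1.

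ANKRD1 (ENSG00000148677, chromosome 10 from 90912096 to 90921276), a nuclear ankyrin-repeat protein and another standard readout of YAP activity, had 124.38, 125.80 and 140.31 TPM in the controls and 64.41, 64.95 and 60.81 TPM in the shFAM111B libraries. Its shFAM111B mean was 48.7% of the control mean, nearly that of CCN1. Its log2 fold change of -1.02 also lay at the line, at -0.97 without control replicate 3 and -1.0, just short of the line, without shFAM111B replicate 3. CCN1, CCN2 and ANKRD1, all in common use as YAP readouts, had the 3 smallest log2 fold changes of the 9 with the TPM as deposited. That order did not hold under quantile normalization, where YAP1 was nearest to 0 (-0.93) and CCN2 (-1.37) passed AJUBA (-1.30), nor with the trend on transcript length removed, where YAP1 (-0.65) and AJUBA (-0.79) were nearest.

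With the TPM as deposited, AMOTL2 and LATS2, whose products restrain YAP1, stood lower against their controls than those readouts, and AJUBA stood between. AMOTL2, an angiomotin that binds YAP1 at cell junctions (ENSG00000114019, chromosome 3 from 134355874 to 134375479), had 79.46, 79.32 and 85.63 TPM in the controls and 15.18, 15.70 and 13.00 TPM in the shFAM111B libraries. Every control was at least 5.05 times any shFAM111B library, and the log2 fold change was -2.40. LATS2, the kinase that phosphorylates YAP1 (ENSG00000150457, chromosome 13 from 20973032 to 21061547), had 22.06, 21.13 and 20.84 TPM in the controls and 4.71, 5.04 and 5.77 TPM in the shFAM111B libraries. The groups were apart by 3.61-fold at their nearest values, with a log2 fold change of -1.86. AJUBA, a LIM protein that binds LATS kinases and limits their activity (ENSG00000129474, chromosome 14 from 22971174 to 22982642), had 120.19, 118.61 and 122.13 TPM in the controls and 44.39, 47.74 and 41.74 TPM in the shFAM111B libraries. Its control values lay just under those of ANKRD1, its shFAM111B mean was 37.1% of the control mean, and its log2 fold change was -1.41.

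The families of these regulators differed in how much the paralogues shared the pattern. LATS1, the other LATS kinase, had 11.84, 10.81 and 9.34 TPM in the controls and 1.86, 1.84 and 1.21 TPM in the shFAM111B libraries. It fell by 2.15 on the log2 scale (SE 0.149, limma adjusted p = 1.82e-05), lower in 3 of 3 libraries, and the summed LATS TPM were 32.0 ± 1.86 and 6.81 ± 0.214 (SD, n = 3 each). The angiomotin AMOTL1 had 4.19 to 4.84 TPM in the controls and 6.43, 4.16 and 7.49 TPM in the shFAM111B libraries, with overlapping groups (limma adjusted p = 0.188). The share of AMOTL2 in the angiomotin sum was therefore 91.8% ± 0.494 in the controls and 67.3% ± 7.11 in the shFAM111B libraries. In the Ajuba family, LIMD1 fell by 1.78 on the log2 scale (15.0 to 3.64 TPM as means, limma adjusted p = 8.01e-06). WTIP was higher in each shFAM111B library, at 7.63, 8.50 and 6.98 TPM against 3.37, 3.77 and 4.15 TPM, a log2 fold change of 0.87 (limma adjusted p = 0.000433). The ratio of its mean TPM was 2.05, so it missed the 2-fold line on the log2(TPM + 1) scale only, and it was called higher under 3 of the 4 other scalings. AMOT, the founding angiomotin, had means of 2.68 and 1.11 TPM, and its log2 fold change of -0.80 also missed that line (limma adjusted p = 0.00166).

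**Figure D2:**
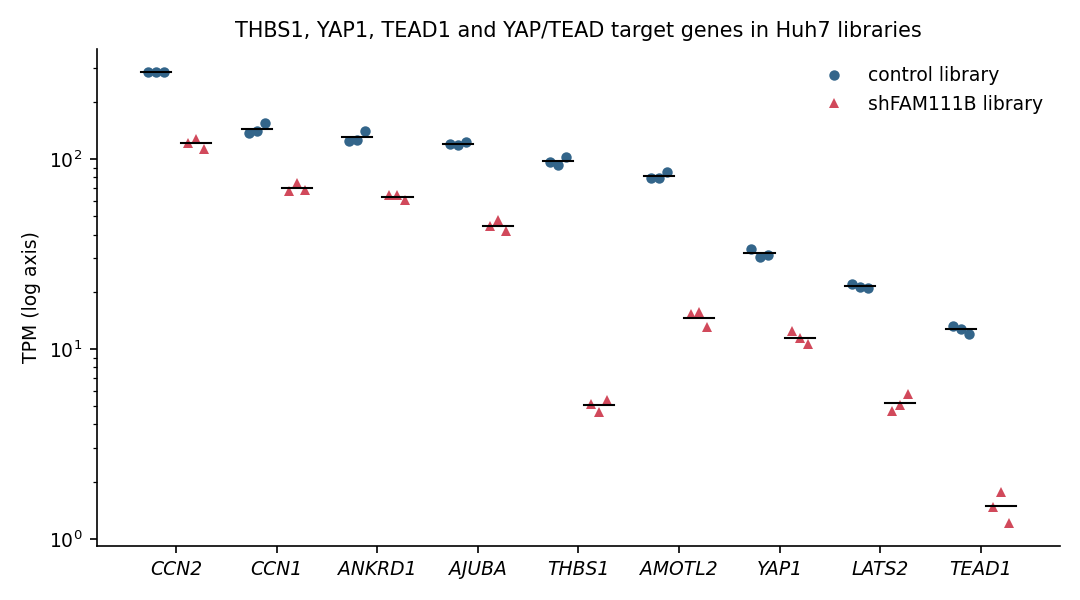
TPM of THBS1 and the 8 YAP/TEAD genes on a log axis (vertical) in the 3 control and 3 shFAM111B libraries of Huh7 cells, with each point 1 library and each short line a group mean. The groups do not overlap for any of the 9, and the gap is widest for THBS1, whose nearest values are 92.60 and 5.40 TPM.

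The 9 genes were also ordered by their mean TPM in each group. TPM are corrected for transcript length, but the log2 fold changes still moved with length, as given below. The order of long and short genes in the 2 groups is therefore a description. In the controls the order of the mean TPM ran CCN2, CCN1, ANKRD1, AJUBA, THBS1, AMOTL2, YAP1, LATS2 and TEAD1, and of these neighbours CCN1 and ANKRD1 alone overlapped. In the shFAM111B libraries THBS1 was the eighth, after LATS2, with which it overlapped, and the other 8 kept the order they had among themselves. Summed over the 9 genes, the level was 914, 909 and 957 TPM in the controls and 337, 354 and 321 TPM in the shFAM111B libraries, 36.4% of the control mean. Within groups the coefficient of variation ran from 0.0705% (CCN2) to 6.77% (ANKRD1) in the controls and from 3.55% (ANKRD1) to 18.9% (TEAD1) in the shFAM111B libraries.

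The size of the log2 fold change in these libraries moved with transcript length, and the length of each gene was therefore set beside its value. Of tested genes whose longest annotated transcript was at most 1000 nt, 10.4% were called lower and 24.3% higher (median log2 fold change 0.43). Between 4000 and 8000 nt, 37.9% were called lower and 2.16% higher (median -0.78), and above 8000 nt 44.7% and 1.46% (median -0.94). Of the 9 genes, THBS1 (7775 nt), LATS2 (5511 nt), YAP1 (5398 nt), AMOTL2 (4521 nt) and AJUBA (4262 nt) fall in the class from 4000 to 8000 nt and TEAD1 (8477 nt) in that above it. CCN1 (2290 nt) and CCN2 (2339 nt) lie between 2000 and 4000 nt, where the median was -0.31, and ANKRD1 (1979 nt) between 1000 and 2000 nt, where it was 0.17.

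Each of the 9 was below the median of its length class. The difference from that median was -3.24 for THBS1, -1.63 for AMOTL2, -1.52 for TEAD1, -1.20 for ANKRD1, -1.08 for LATS2, -0.93 for CCN2, -0.71 for CCN1, -0.64 for AJUBA and -0.62 for YAP1, all on the log2 scale. With a smooth trend on length removed, the log2 fold change of THBS1 was -3.14 and that of YAP1, the smallest, -0.65. ANKRD1, the shortest, lies close to the upper edge of its class, and with the smooth trend removed its value was -0.99, behind those of AMOTL2 (-1.75), TEAD1 (-1.57), LATS2 (-1.10) and CCN2 (-1.08). Whether length itself plays a part in the values of the 9 genes was not tested.

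**Figure D3:**
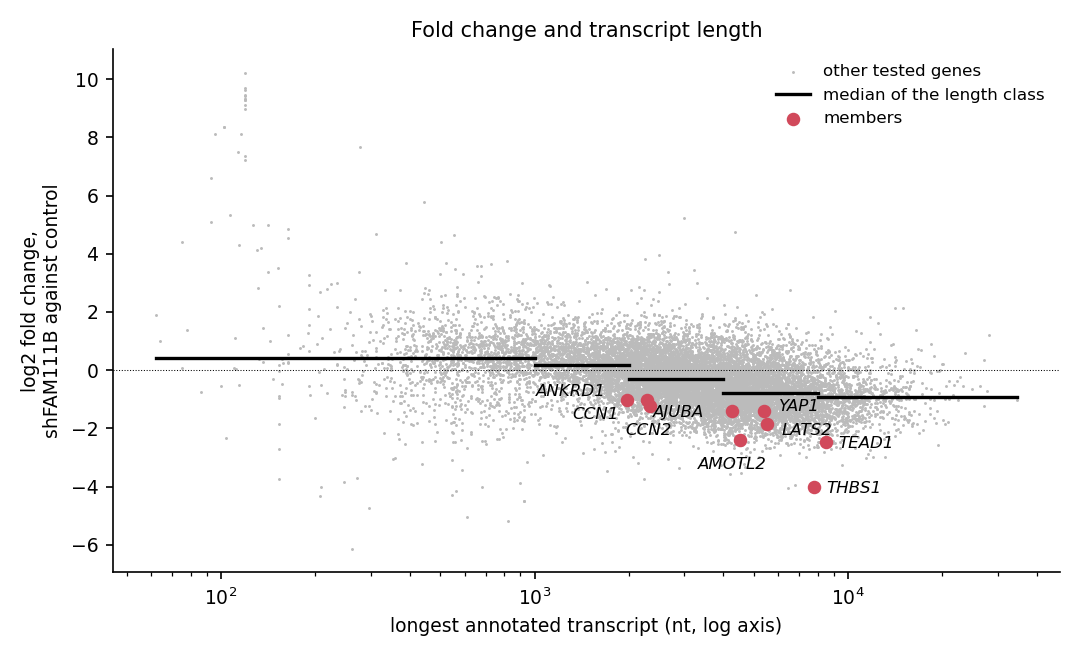
Log2 fold change (shFAM111B against control, log2(TPM + 1) scale, vertical axis) against the length of the longest annotated transcript (nt, log axis) for the tested genes with a length, in grey, with the 9 genes in red and the median of each length class as a black line. The medians step down from 0.43 to -0.94 with length, and all 9 genes lie below the line of their class.

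The scaling of the TPM sets where 0 lies, since a relative measure gives lower values to all other genes when some take up more of the total. With the TPM as deposited, 22.2% of the calls were higher (974 higher and 3406 lower). After median-of-ratios scaling, which moved the median tested gene to 0.03, 52.9% were (2017 and 1793), after upper-quartile scaling (median 0.11) 60.2% (2340 and 1548), after quantile normalization (median -0.03) 47.5% (1673 and 1846), and with TPM rescaled without mitochondrial chromosome and ribosomal RNA genes (median -0.50) 16.1% (816 and 4242). THBS1, AMOTL2, LATS2 and TEAD1 stayed past 2-fold under all 4 of these scalings, at -4.19 to -3.51 for THBS1, -2.66 to -2.04 for TEAD1, -2.56 to -1.87 for AMOTL2 and -2.02 to -1.35 for LATS2. AJUBA (-1.56 to -0.86) and CCN2 (-1.39 to -0.69) did so under 2 scalings, and YAP1 (-1.55 to -0.87), CCN1 (-1.17 to -0.47) and ANKRD1 (-1.17 to -0.48) under 1. None of the 9 had a log2 fold change above 0 under any scaling.

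**Figure D4:**
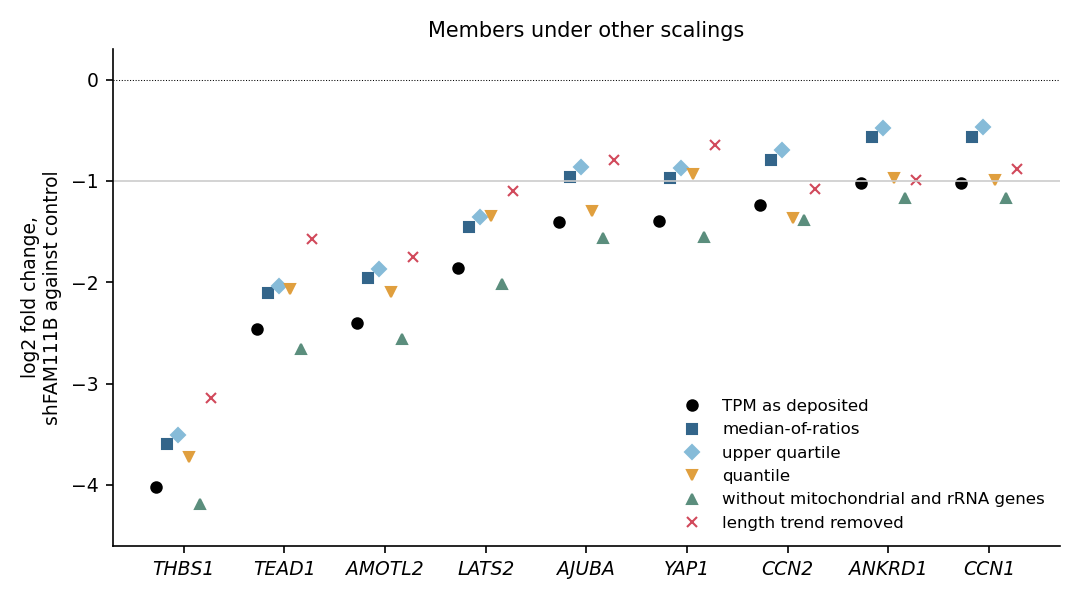
Log2 fold change of each of the 9 genes (shFAM111B against control, log2(TPM + 1) scale) with the TPM as deposited and under the 4 other scalings, and with the length trend removed (crosses), with the 2-fold line in grey. THBS1, TEAD1, AMOTL2 and LATS2 lie past the line under each scaling, and CCN1 and ANKRD1 come nearest to 0, at -0.47 and -0.48.

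Of the other genes of the pathway, 130 were listed by role and 100 of them were tested, with 43 called lower (43.0%) and 5 called higher and a median log2 fold change of -0.87. Of all tested genes 23.7% were called lower and 6.77% higher, and 37.9% were lower among those from 4000 to 8000 nt. The median of all tested genes was -0.36, and the listed genes are longer, with a median transcript of 4840 nt against 3210 nt. Under the 4 other scalings 23 to 52 of them were called lower and 5 to 9 higher. In the Hippo kinase cascade 11 of 22 tested genes fell and 0 rose (median -1.03, median transcript 5440 nt), and at an unadjusted p under 0.05 from limma, with no limit on size, 18 were lower and 0 higher. Under the other scalings 6 to 15 were called lower and 0 higher. The largest falls were those of WWC2, a scaffold of the cascade (11.1 to 1.64 TPM as means), of LATS1 and of MAP4K3, a kinase that can act on LATS (17.4 to 3.96 TPM), with log2 fold changes of -2.20, -2.15 and -1.89. NF2 (merlin), which recruits LATS to the membrane and was picked after its values were seen, had 17.54, 15.83 and 18.06 TPM in the controls and 16.77, 16.29 and 18.23 TPM in the shFAM111B libraries. In the STRIPAK phosphatase complex, which opposes the cascade, 7 of 19 fell and 0 rose (median -0.86), against 15 lower and 1 higher at an unadjusted p under 0.05, and 3 to 10 were called lower under the other scalings. PPP2CA, a catalytic subunit of the phosphatase (96.8 to 28.1 TPM), PPP2R1B, a scaffold subunit (29.2 to 8.37 TPM), and STRN3, a striatin (85.5 to 26.9 TPM), fell most. The other scaffold subunit, PPP2R1A, was picked after its values were seen. It had means of 68.9 and 80.9 TPM (log2 fold change 0.23, limma adjusted p = 0.00695). Both lists held genes called lower, as did 23.7% of all tested genes. The share of STRIPAK genes called lower was 36.8% (median transcript 4870 nt), near the 37.9% of all tested genes from 4000 to 8000 nt. Nothing about the complex is read from that count.

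Of 5 tested genes among WWTR1, the other TEADs and the VGLL cofactors, 0 were called in either direction by limma (median -0.71), while 3 were lower and 1 higher at an unadjusted p under 0.05, and 0 to 1 were called lower under the other scalings. Of the 7 angiomotin and zyxin/Ajuba LIM genes, 2 fell (LIMD1 and LPP, a zyxin relative with 6.91 and 1.78 TPM as means) and 0 rose (median -0.80, median transcript 8970 nt), against 4 lower and 1 higher at an unadjusted p under 0.05. Among other genes widely used as YAP/TAZ-TEAD targets, 8 of 13 tested fell and 1 rose (61.5% lower, median -1.21, median transcript 5910 nt). Under the 4 other scalings 2 to 8 of them were called lower, and 1 was called higher in each. Of all tested genes 23.7% were called lower, and 37.9% of those from 4000 to 8000 nt.

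CRIM1, a transmembrane BMP-binding protein, fell from 27.6 ± 2.96 to 8.56 ± 1.58 TPM (SD, n = 3 each) and NT5E, the ecto-5'-nucleotidase CD73, from 35.8 ± 0.911 to 13.0 ± 1.74 TPM, with NT5E called under 1 of the 4 other scalings alone (-1.55 to -0.87). GADD45A, a stress-response gene whose longest transcript has 1496 nt, had 81.38, 73.10 and 77.63 TPM in the controls and 26.72, 29.61 and 26.93 TPM in the shFAM111B libraries. It fell by 1.45 on the log2 scale (limma adjusted p = 4.46e-06), where the median gene of its length class stood at 0.17. CCDC80, a secreted matrix protein, was the one that rose, from 2.55, 3.63 and 5.72 TPM to 14.59, 13.50 and 13.11 TPM. Its log2 fold change was 1.62 (SE 0.222, limma adjusted p = 0.000471). Its longest transcript has 12430 nt, in a length class with a median of -0.94. Whether length plays a part in the values of GADD45A or CCDC80 was not tested.

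The paralogues of THBS1, CCN1, CCN2 and ANKRD1 were mostly too low to test, and 3 of 10 passed the filter with 0 called in either direction by limma and 0 at an unadjusted p under 0.05 (median -0.06). THBS3 had means of 4.05 and 4.03 TPM and THBS4 of 8.60 and 10.5 TPM, and both groups of THBS3 overlapped. ANKRD23 had means of 1.67 and 1.12 TPM. No paralogue therefore had a level near that of THBS1 in the controls. Among receptors and partners of THBS1, 4 of 9 tested genes fell (44.4%) and 0 rose (median -0.19, median transcript 3780 nt), against 23.7% lower of all tested genes. At an unadjusted p under 0.05 from limma, 5 of these 9 were lower and 3 higher. Under the other scalings 3 to 4 were called lower and 0 to 3 higher. The highest was TGFB1, the latent factor that THBS1 can activate, which was picked after its values were seen. With the TPM as deposited it had means of 21.9 and 41.1 TPM (log2 fold change 0.88, limma adjusted p = 2.46e-05). Under the other scalings it stood at 0.74 to 1.41 and was called under 3. The 3 largest falls were in integrin subunits. ITGA6 had 60.53, 55.49 and 50.65 TPM in the controls and 8.06, 8.13 and 7.59 TPM in the shFAM111B libraries (log2 fold change -2.66, limma adjusted p = 2.22e-06). ITGAV had means of 96.6 ± 8.79 and 22.7 ± 2.08 TPM (log2 fold change -2.04), and ITGB1, the shared beta subunit, of 353 ± 13.0 and 116 ± 10.7 TPM (log2 fold change -1.60, SD, n = 3 each). CD47, the THBS1 receptor, picked after its values were seen, had 7.34, 7.17 and 7.32 TPM in the controls and 13.08, 10.46 and 6.39 TPM in the shFAM111B libraries, with overlapping groups (limma adjusted p = 0.188).

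SRF/MRTF targets, which respond to actin and overlap in function with YAP targets, were split, with 4 of 14 tested genes called lower and 4 called higher (median -0.49). The share called lower, 28.6%, was near the 23.7% of all tested genes, and nothing is read from it. Of all tested genes 6.77% were called higher. At an unadjusted p under 0.05 from limma, 9 were lower and 4 higher. Under the other scalings 3 to 6 were called lower and 4 higher. VCL (vinculin, a focal adhesion protein) had means of 68.8 and 10.6 TPM, CALD1 (caldesmon, an actin-binding protein) of 286 and 72.9 TPM and FHL2, a LIM-only cofactor, of 33.1 and 10.7 TPM, with log2 fold changes of -2.63, -1.96 and -1.55. TAGLN (transgelin), an actin-binding protein of contractile cells, had 16.31, 17.21 and 19.26 TPM in the controls and 149.30, 134.61 and 157.45 TPM in the shFAM111B libraries. It rose by 2.99 on the log2 scale, and CNN1 (calponin, 2.52 to 18.6 TPM) and TPM2 (a tropomyosin, 164 to 647 TPM) rose by 2.48 and 1.97 (limma adjusted p between 1.89e-06 and 4.15e-06). All 3 had longest transcripts under 4000 nt and VCL, CALD1 and FHL2 over it. Of the TGF-beta/SMAD targets, 7 of 8 tested fell (87.5%) and 0 rose (median -1.58, median transcript 3950 nt), against 23.7% lower of all tested genes. The counts were the same at an unadjusted p under 0.05, and 4 to 7 were called lower under the other scalings. SKIL (a SMAD corepressor) fell from 24.2 ± 1.67 to 6.52 ± 0.615 TPM and BHLHE40 (a transcriptional repressor) from 30.8 ± 2.86 to 8.52 ± 1.28 TPM (SD, n = 3 each). None of the 48 called genes of these lists had a sign that turned under any of the 4 scalings.

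The genes nearest to THBS1 in their profile over the 6 libraries were looked up by the Euclidean distance between profiles of log2(TPM + 1), each set to its control mean. Only protein-coding genes outside chromosome 8 were ranked. SPECC1L, a cytoskeletal crosslinker (ENSG00000100014), was the nearest at a distance of 0.222, with means of 19.0 and 0.287 TPM and a log2 fold change of -3.96. Its shFAM111B mean lay under 1 TPM, where the pseudocount of 1 shrinks the log2 fold change. The ratio of the means was 66.1 for SPECC1L and 19.2 for THBS1, so the match holds on the log2(TPM + 1) scale and not in the ratio. SPECC1L was followed by POLR2M (0.919), MT-ATP8 (1.07), TXNRD1, a thioredoxin reductase (1.30, 270 and 26.8 TPM), and MT-ND4L (1.31). POLR2M, MT-ATP8 and MT-ND4L overlap a neighbouring gene, so the split of their reads is uncertain. Whether SPECC1L and TXNRD1 share reads with another annotated gene was not examined. None of the other 8 genes was among these 5. Their distances to THBS1 ran from 2.72 for TEAD1 and 2.81 for AMOTL2 to 5.19 for CCN1 and ANKRD1. With each profile set to its control mean, these distances mostly follow the log2 fold changes already given. The ranking is therefore no separate result and shows nothing about shared regulation.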

How the data were processed

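RNA sequencing libraries of Huh7 cells (3 control, 3 shFAM111B) were analysed from the table the authors deposited, which gives TPM per gene and library. The submitters' processing notes name RSEM, DESeq2 and hg38, and the aligner and the tool versions are not given in the sources used here. The labels describe a stranded poly(A) mRNA kit and the methods a TruSeq kit. The 6 columns with group means and the authors' own comparison (fold change, its log2, p-value and adjusted p-value) were not used. A relative unit such as TPM lowers every gene when a few take up more of the total. Deposited TPM summed to 994314 to 997094 in control and 978634 to 994115 in shFAM111B libraries, and at most 0.889% of the tested genes had identical TPM in any pair of libraries.

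A gene was tested when 3 or more of the 6 libraries had 1 TPM or more. Log2(TPM + 1) was compared in limma 3.58.1 (lmFit, eBayes with a trend, no covariates) under R 4.3.3 with Benjamini-Hochberg adjustment, and the fit was tested on simulated data. With 3 libraries a group an exact permutation test cannot go below a two-sided p of 0.1. Lengths and positions come from GENCODE v29 (GRCh38), which holds 58420 of the 60666 gene identifiers (96.3%), and promoter windows from RefSeq (GRCh38.p14). Lengths are of the longest annotated transcript, whether or not it is the one in use, and the length trend was a loess fit (span 0.75). Tables and figures were made in Python 3.11.15 with numpy 2.4.6, pandas 2.3.3 and matplotlib 3.10.9.

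The 9 genes, the pathway and marker lists and the tests were chosen with earlier results of these data known. Named genes were the 9, FAM111B, the up to 3 called genes with the largest change in each direction of each pathway list, the listed paralogues and the 5 protein-coding genes nearest to THBS1, with NF2, CD47, TGFB1 and PPP2R1A added after their values were seen. Genes on chromosome 8 were counted and not named, and they were left out of the ranking by distance to THBS1. The result of 1 further gene that the rule would name is not reported here, and it stays in the counts. Alternatives were 2 other filters, a pseudocount of 0.1, 4 other scalings (quantile normalization among them), a block for the replicate number, omission of each of the 6 libraries, and removal of the length trend.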

Additional observations from a re-analysis of the deposited data

How the results depend on the processing

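No setting turned the sign of any of the 9 genes. The counts of calls moved most with the scaling. Genes called lower went from 3406 to 1793 under median-of-ratios scaling, 1846 under quantile normalization and 1548 under upper-quartile scaling, and genes called higher from 974 to 2017, 1673 and 2340, and to 634 when 1 TPM was required in every library. Of the 9 genes, 4 met the rule under median-of-ratios and 4 under upper-quartile scaling, and 6 under quantile normalization. Of the pathway genes, 25 were called lower and 8 higher under median-of-ratios scaling and 23 and 9 under upper-quartile scaling, against 43 and 5 as deposited. With a pseudocount of 0.1, 4245 genes were called lower and 1245 higher. Leaving out each library in turn gave 3360 to 3545 genes lower, 904 to 1073 higher, 7 to 9 of the 9 genes (7 without control replicate 3), 42 to 45 pathway genes lower and 5 to 5 higher. The replicate number as a block gave 3402 lower and 983 higher, all 9 genes, and 43 and 5 pathway genes. Same-numbered libraries of the 2 groups deviated together with correlations of 0.054, 0.0349 and 0.0908, and shFAM111B replicate 2 correlated better with control replicate 1 (0.0442), so the numbers were not taken as pairs. GADD45A, called with the TPM as deposited, stood at -1.59 to -0.90 under the 4 scalings and met the rule under 3. TPM hold no depth, so counting error cannot be given for low values such as those of TEAD1 in the shFAM111B libraries, and 3 libraries a group limit what spread can be seen.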
